A study of Mus musculus with 4 samples.

Results

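The genes described here encode the factors that carry out and regulate protein synthesis in the cytosol, together with the aminoacyl-tRNA synthetases of the cytosol and of mitochondria. They were chosen by gene symbol: eIF1 to eIF6 and their kinases and binding proteins, eEF1 and eEF2, the release factors Etf1 and Gspt, the cytoplasmic poly(A)-binding proteins, and the synthetases whose symbol ends in ars, ars1 or ars2, with Eprs. On the array 104 of 12422 probe sets, for 77 of 8251 genes, met this rule, and the rule used no measured value. Of the 77 genes, 33 serve initiation, 7 elongation, 6 termination or poly(A) binding, 9 are regulators, 17 are cytosolic synthetases and 5 are mitochondrial synthetases. Synthetase genes with a symbol ending in ars2 were counted as mitochondrial and the others as cytosolic, by symbol alone. A gene whose product serves both compartments would therefore count as cytosolic. The samples were whole seminal vesicles of 4 male C57Bl/6J mice, wild type for Nkx3.1 (+/+) and 15 months old, with 1 Affymetrix Mu74AV2 array per mouse and no agent given. The labels give 1 group, so the values describe wild-type glands and the spread between their mice, and no genotype, age or tissue was compared. All values are on the log2 scale, 1 for each probe set and mouse, and an SD is over the 4 mice throughout. Levels of different probe sets are not comparable with each other, because each set binds its target with its own strength, so every level below is set against the background range alone.

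Translation begins when eIF2 carries the initiator tRNA to the small ribosomal subunit, eIF4 factors bring the mRNA, and eIF3 and eIF1A hold the complex while it scans for the start codon. eEF1A then delivers aminoacyl-tRNAs and eEF2 moves the ribosome along, eRF1 and eRF3 (Etf1 and Gspt) release the finished chain, and synthetases load each tRNA with its amino acid. When kinases phosphorylate eIF2 alpha, general initiation falls while the transcription factor ATF4 is made and can raise the transcription of amino acid and synthetase genes. The seminal vesicle is an exocrine gland whose epithelium exports large amounts of a few proteins, so its cells depend on this machinery.

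The start regions of the genes are shown first because a stress-response motif recurred in those of the cytosolic synthetases. RefSeq windows of GRCm38.p6, from 250 bases before to 50 after the annotated start, were at hand for 58 of the 77 genes. They were searched on both strands for the C/EBP-ATF response element, spelled TGATGNAA, which is the type of element that ATF4 binds with a C/EBP partner. It was found in 5 of 10 cytosolic synthetase genes with a window, in 1 of 29 initiation genes (Eif2s3x), in 1 of 7 regulators (Eef2k), and in 0 of 5 elongation, 0 of 5 mitochondrial synthetase and 0 of 2 termination and poly(A)-binding genes. Among all 27018 genes with a window 4.51% held it, and among the 6573 of these with a probe set of their own 3.0%. The 5 synthetase genes were Aars, Gars, Iars, Tars and Yars, for alanine, glycine, isoleucine, threonine and tyrosine. The windows below are 30 bases on the strand of the gene, with the element in capitals. It reads forward in Yars and as its reverse complement in the others.
Aars (chr8:111033840-111033869, plus strand): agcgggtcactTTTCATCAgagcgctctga
Gars (chr6:55037960-55037989, plus strand): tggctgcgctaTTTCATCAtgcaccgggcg
Iars (chr13:49682126-49682155, plus strand): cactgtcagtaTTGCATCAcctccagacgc
Tars (chr15:11399655-11399684, minus strand): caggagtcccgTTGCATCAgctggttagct
Yars (chr4:129189895-129189924, plus strand): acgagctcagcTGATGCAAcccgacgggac
Counted from the annotated start, the elements shown began at position -30 in Gars and -15 in Tars, and 3, 7 and 9 bases after it in Yars, Iars and Aars. Aars held a 2nd element, not shown, that began at position -112. The Aars element shown overlaps the pyrimidine tract described next. Each of the 5 genes was above the background range in every mouse (values below). A match describes the letters of the window and was not tested as a binding site.

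The same windows were read for a pyrimidine tract at the start, defined as a C followed by at least 4 bases that are C or T and beginning within 10 bases of the annotated start. Such tracts at the very 5′ end mark mRNAs whose translation follows mTOR activity, a class that includes the ribosomal proteins and eEF1A. The tract was found in 22 of 58 member genes, or 37.9%, against 33.3% of all genes with a window, a share near the general one, and in 33 of 53 ribosomal protein genes, or 62.3%. The windows of Eif2s3x and Eif2s3y, the X- and Y-linked copies of the gene for eIF2 gamma, and of Eef1a1 and Eif3f are shown for their tracts of 10 to 15 bases (capitals), from 10 bases before to 20 after the start.
Eif2s3x (chrX:94212632-94212661, minus strand): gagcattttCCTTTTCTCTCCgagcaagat
Eif2s3y (chrY:1010585-1010614, plus strand): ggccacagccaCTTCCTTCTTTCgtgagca
Eef1a1 (chr9:78481705-78481734, minus strand): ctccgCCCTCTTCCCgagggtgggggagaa
Eif3f (chr7:108934405-108934434, plus strand): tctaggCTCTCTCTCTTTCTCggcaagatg
Both copies of the eIF2 gamma gene carried a tract of 12 bases, although only the X-linked copy gave signal above the background range.

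The arrays were alike. Over probe sets, which are not independent of one another, Pearson's r was 0.992 to 0.994 for the 6 pairs, and array medians lay between 4.95 and 4.98. Signal was read against a background range, whose limit on an array was the 90th percentile over 127 probe sets that read 105 genes typical of organs other than this gland. The limits were 6.18, 6.04, 6.08 and 6.22 in mice 1 to 4. A gene counted as above the range when a probe set of it exceeded this limit on all 4 arrays. A value under it is no evidence that a gene was silent. Seminal vesicle secretion genes were above it in 6 of 6 measured cases, luminal epithelial markers in 7 of 8 and smooth muscle markers in 9 of 9. Fibroblast and matrix (3 of 6), macrophage and dendritic cell (4 of 9) and B and plasma cell markers (2 of 6) were above it in part. Basal epithelial markers (0 of 4), adipocyte markers (0 of 3), skeletal muscle (1 of 5), T cell (1 of 5) and endothelial markers (1 of 5) mostly were not. The tissue is whole gland, so fewer cells of a type and less RNA per cell cannot be told apart.

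Of the 77 genes, 43 (55.8%) were above the background range, where 28.6% of all 8251 genes were. By probe set, 50 of 104 were above it, where 23.4% of all probe sets were. The share differed by role: 14 of 17 cytosolic synthetases and 5 of 6 termination and poly(A)-binding genes were above the range, 4 of 7 elongation genes, 18 of 33 initiation genes, 2 of 9 regulators and 0 of 5 mitochondrial synthetases. No test was made between roles. The count of 43 became 59 with the 75th percentile as limit and 36 with the 95th, where 50.4% and 20.3% of all genes passed.

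**Figure D1:**
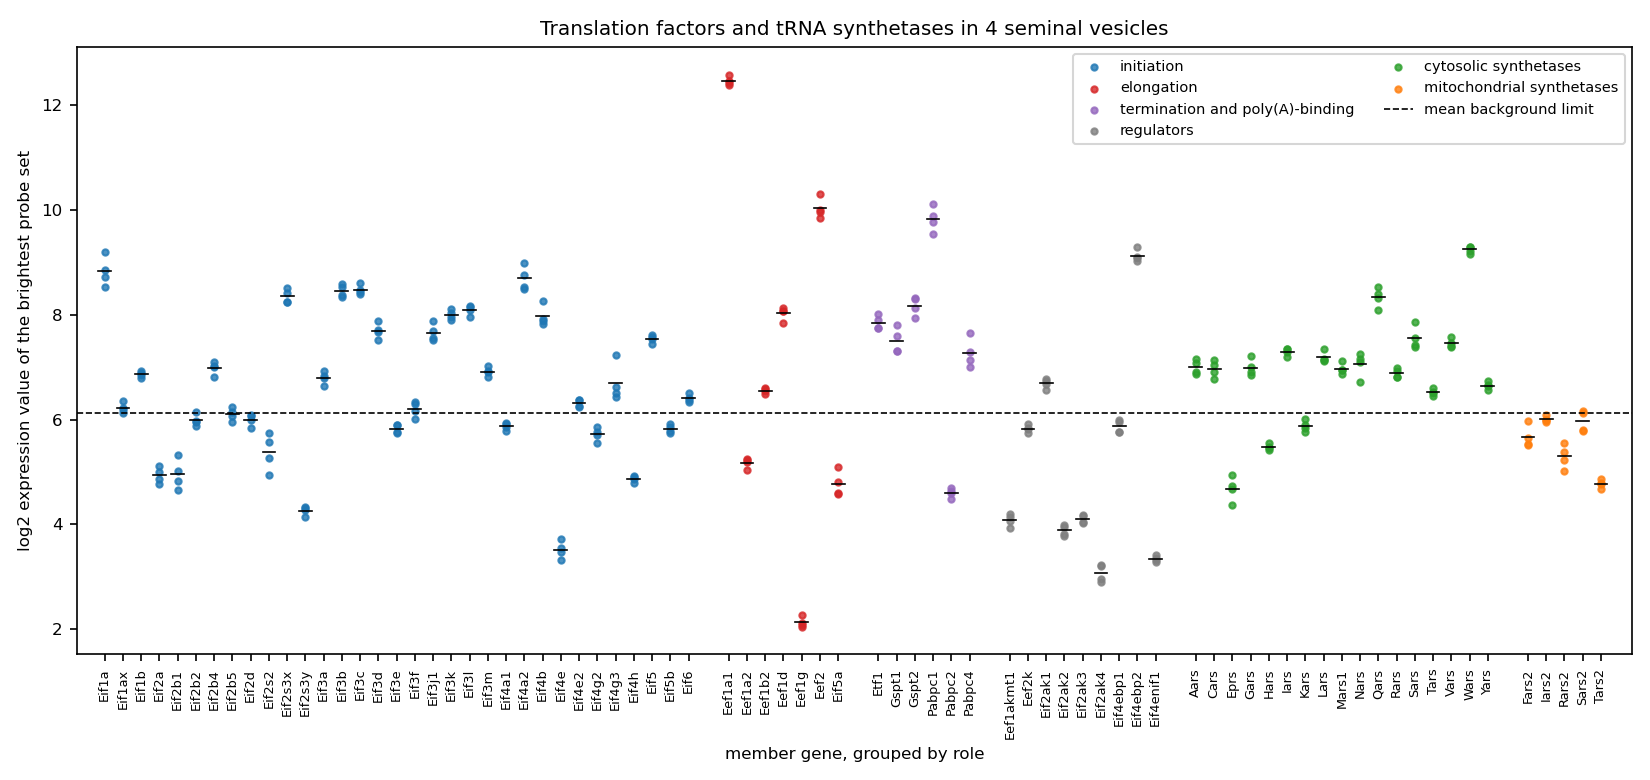
Log2 expression value of the brightest probe set of each of the 77 genes (y axis), grouped by role and in alphabetical order within a role (x axis). Each point is a mouse, the short line is the mean of 4 mice and the dashed line is the mean background limit of 6.13. Of the 17 synthetases counted as cytosolic by symbol 14 were above the range on every array, and of the 5 counted as mitochondrial 0 were. Heights of different genes are not comparable.

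Initiation factors are taken by complex. eIF3 is the large scaffold that binds the small ribosomal subunit, and 8 of 10 subunit genes on the array exceeded the background limit in every mouse. Eif3c had 8.48 ± 0.09, Eif3b 8.45 ± 0.12, Eif3l 8.09 ± 0.09 and Eif3k 7.99 ± 0.09 (SD, n = 4 each). Eif3d, whose product can bind the mRNA cap, had 7.70 ± 0.14, Eif3j1 7.66 ± 0.17, Eif3m 6.91 ± 0.08 and the scaffold subunit gene Eif3a 6.80 ± 0.12. Eif3f had 6.29, 6.00, 6.33 and 6.15 in mice 1 to 4 and passed the limit in mice 1 and 3 alone. Eif3e, at 5.82 ± 0.08, passed it in no mouse.

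eIF2 delivers the initiator tRNA. Of 5 genes, namely its subunit genes on the array and the related Eif2a and Eif2d, 1 was above the range. This was the X-linked gamma subunit gene. Eif2s3x had 8.25, 8.51, 8.23 and 8.42 in mice 1 to 4, all above the range. Its Y-linked copy Eif2s3y had 4.31, 4.28, 4.14 and 4.34, all under it, and is read by a probe set whose _f_at suffix marks probes shared within a gene family. The beta subunit gene Eif2s2 had 5.57, 5.74, 5.26 and 4.94, under the limit in every mouse. Its 2nd probe set had 4.68, 4.84, 4.86 and 4.63, a range of 0.23 against 0.79, and was likewise lowest in mouse 4.

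Other factors that can place the initiator tRNA, and eIF2B, which reloads eIF2 with GTP, follow. Eif2a had 4.93 ± 0.15 and Eif2d 6.00 ± 0.11, neither above the range. Of the 4 eIF2B subunit genes measured, Eif2b4 had 6.98 ± 0.12 and was above it. Eif2b5 (6.10 ± 0.12), Eif2b2 (5.99 ± 0.11) and Eif2b1 (4.96 ± 0.29) were not. Eif2b1 had 4.65, 5.32, 5.03 and 4.83, an order with mouse 2 highest that recurred in many brighter initiation genes.

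The eIF4 factors bind the cap and unwind the leader of the mRNA, and 4 of 8 were above the range. Eif4a2, an RNA helicase gene, had 8.76, 8.99, 8.48 and 8.53 in mice 1 to 4, and its paralogue Eif4a1 had 5.78, 5.93, 5.92 and 5.86, under the limit. Eif4b, a cofactor of the helicase, had 7.87, 8.27, 7.82 and 7.92 in its brightest probe set. The scaffold gene Eif4g3 had 6.62, 7.22, 6.51 and 6.43, which put mouse 2 apart from the other mice by more than any of them differed from one another. Eif4e, the cap-binding protein gene, had 3.47, 3.54, 3.72 and 3.33, and its relative Eif4e2 had 6.26, 6.24, 6.37 and 6.37, narrowly above the limit in each mouse. Eif4g2 (5.72 ± 0.13) and Eif4h (4.87 ± 0.06) were not above the range.

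eIF1A acts in scanning, and its genes had the same highest and lowest mouse in every probe set. Eif1a had 8.53, 9.19, 8.86 and 8.71, and 7.92, 8.28, 7.99 and 8.16 in its other probe set. The X-linked Eif1ax had 6.13, 6.35, 6.22 and 6.18, above the limit in mice 2 and 3 alone, and 4.78, 5.32, 4.98 and 4.95 in its other probe set. In all 4 probe sets mouse 2 stood highest and mouse 1 lowest, although the sequences of the 2 genes are close and their probes may read each other's transcripts. Eif1b, an eIF1 gene, had 6.90, 6.86, 6.93 and 6.79, the smallest SD (0.06) of the initiation genes above the range. Eif5, which makes eIF2 hydrolyse its GTP, had 7.54 ± 0.07, Eif6, which keeps ribosomal subunits apart, 6.41 ± 0.07, and the subunit-joining factor gene Eif5b 5.83 ± 0.08, not above the range.

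Initiation genes were most often highest in mouse 2. The mean limit was 6.13, and 20 initiation genes had a mean over it. Mouse 2 held the highest value in 15 (75%) of them, where it did so in 30.4% of all 2633 genes over the limit. Mouse 3 was highest in 3 (all genes 26.8%), mouse 4 in 2 (all genes 19.6%) and mouse 1 in 0 (all genes 23.1%). Conversely 10 of the 20 were lowest in mouse 1, where 24% of all such genes were. The mean deviation of the 20 genes from their own 4-mouse means was -0.077, 0.13, -0.020 and -0.032 in mice 1 to 4, and that of all 2633 genes was -0.0071, 0.019, 0.0021 and -0.015. Of the 9 eIF3 genes over the limit 7 were highest in mouse 2, and of the 4 eIF4 genes 3 were. Without mouse 2, the deviations were -0.034, 0.023 and 0.011 in mice 1, 3 and 4. Leaving out a high mouse raises the others by arithmetic, so these values are no separate check. With arrays quantile normalized again, 13 of the 20 were highest in mouse 2, where 24.9% of all genes were, and the mean deviation there was 0.098. This count was chosen after the values were seen, has no test, and rests on mice measured once each.

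**Figure D2:**
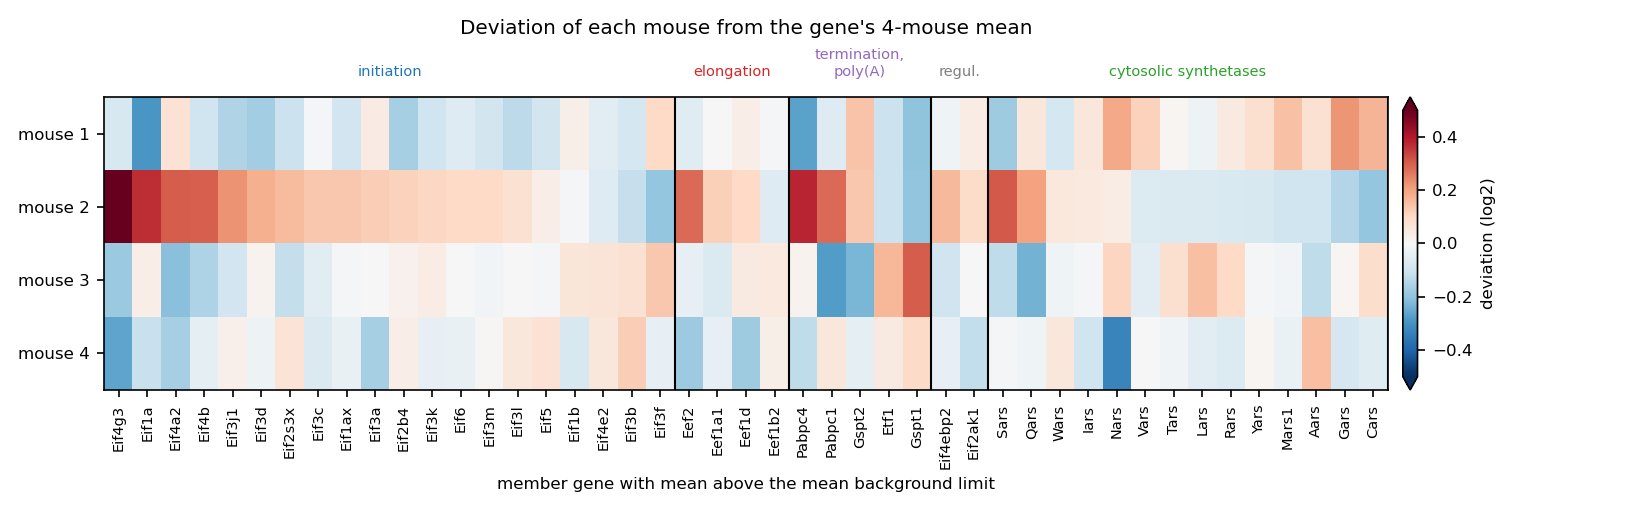
Deviation of each mouse (rows) from the gene's own mean over 4 mice, in log2 units (colour, red above and blue below the mean, saturated at 0.5), for the 45 genes whose mean exceeded the mean background limit (columns, by role and then by the deviation in mouse 2). Mouse 2 is above the mean in 16 of 20 initiation genes and in 5 of 14 cytosolic synthetases.

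Other features of the mice are given beside this pattern, and not all of them set mouse 2 apart. Luminal epithelial markers had mean deviations of -0.062, 0.12, -0.085 and 0.024 in mice 1 to 4, with 4 of 7 genes over the limit highest in mouse 2, and their mean level over 8 genes was 7.11, 7.35, 7.09 and 7.20. Smooth muscle markers were highest in mouse 1 in 9 of 9 cases and lowest in mouse 2 in 4, with deviations of 0.34, -0.18, -0.040 and -0.12, and their mean level was 9.24, 8.72, 8.86 and 8.78. Secretion genes had -0.021, 0.097, -0.036 and -0.039. The 2 of 6 B and plasma cell markers over the limit had -0.014, 0.78, 0.55 and -1.32. Beta-actin control probe sets near the 3′ end read higher than those near the 5′ end by 1.08, 0.82, 1.02 and 0.98 in mice 1 to 4, least in mouse 2. The same difference for the Gapdh control was -0.116, -0.147, -0.150 and -0.134, lowest in mouse 3, so it did not set mouse 2 apart. The values of all probe sets were spread most widely in mouse 2, with an SD of 1.78 against 1.75, 1.76 and 1.74 in mice 1, 3 and 4. The part of these features in the pattern was not tested.

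**Figure D3:**
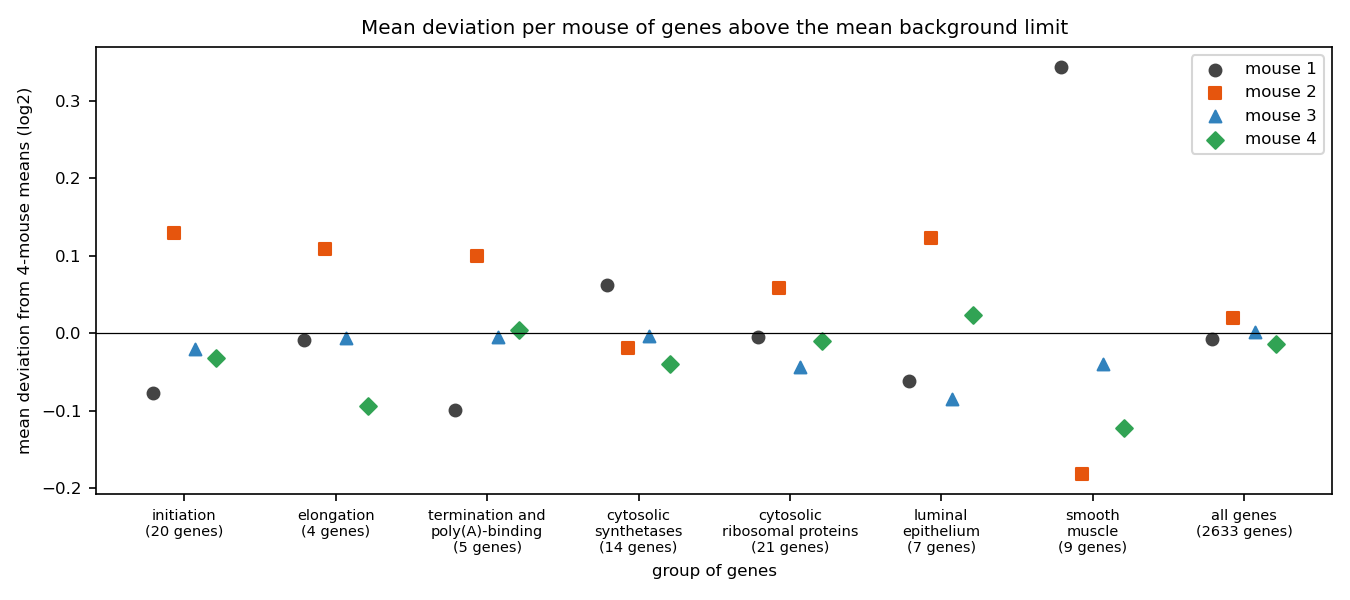
Mean deviation per mouse (y axis, log2 units) of the genes of each group whose mean exceeded the mean background limit (x axis, number of genes in brackets), 1 point per mouse. Cytosolic synthetases and smooth muscle are highest in mouse 1. Every other group is highest in mouse 2, with all genes included, at 0.019.

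Of the elongation factors 4 of 7 were above the range. Eef1a1, which encodes the carrier of aminoacyl-tRNAs, had 12.46, 12.58, 12.38 and 12.41 in mice 1 to 4, a range of 0.19. Eef1a2, which replaces it in adult muscle and neurons, had 5.18, 5.23, 5.05 and 5.26, under the limit in every mouse. Eef2, the translocase gene, had 9.96, 10.31, 9.99 and 9.84, highest in mouse 2.

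The subunits of eEF1B, which recharges eEF1A with GTP, gave mixed readings. Eef1d had 8.06, 8.13, 8.07 and 7.85, lowest in mouse 4. Eef1b2 had 6.54, 6.48, 6.60 and 6.58 in its brighter probe set, an SD of 0.05, while its other probe set had 2.85 ± 0.11. Eef1g is read by 1 probe set at 2.13 ± 0.10. Eif5a, the hypusine-bearing factor that helps ribosomes through difficult stretches, had 4.82, 4.58, 4.60 and 5.10, under the limit in every mouse, with mouse 4 highest. The 4 elongation genes over the mean limit had mean deviations of -0.0095, 0.11, -0.0057 and -0.094. The value in mouse 2 became 0.042 with arrays quantile normalized and 0.063 with dim genes kept, and 0.17 when the probe sets of a gene were averaged.

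Termination and poly(A)-binding genes had the widest spread among the roles, with a median SD of 0.21 over 11 probe sets against 0.12 over all 104 members. The parts of the release factor did not follow one order. Etf1, the gene of eRF1, which recognises stop codons, had 7.74, 7.74, 8.01 and 7.89 in mice 1 to 4 in its brightest probe set, and all 4 of its probe sets above the range were highest in mouse 3. Gspt1, the gene of the release factor GTPase eRF3a, had 7.30, 7.31, 7.81 and 7.60, likewise highest in mouse 3. Its X-linked paralogue Gspt2 had 8.31, 8.31, 7.94 and 8.12, lowest in mouse 3. Of the macrophage and dendritic cell markers 4 of 9 were above the range. In mouse 3, 5 of 5 of these markers over the mean limit were highest, where 26.8% of all genes over it were. Their mean deviations were -0.092, 0.13, 0.32 and -0.36 in mice 1 to 4. The 2 B and plasma cell markers over the limit had -0.014, 0.78, 0.55 and -1.32, and 1 of them was highest in mouse 3. The part of these markers in the values of Etf1 and the Gspt genes was not tested.

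Pabpc1, the main cytoplasmic poly(A)-binding protein gene, had 9.76, 10.10, 9.54 and 9.88, and was also lowest in mouse 3. Pabpc4 had 6.99, 7.64, 7.28 and 7.14 in its brighter probe set, highest in mouse 2, and 3.55 ± 0.10 in the other, which was under the limit. Pabpc2, a testis-expressed member of the family, had 4.60 ± 0.09. The 5 genes over the mean limit had mean deviations of -0.099, 0.099, -0.0045 and 0.0045, so that mouse 1 was low and mouse 2 high. The value in mouse 1 was -0.066 with dim genes kept and -0.040 when the probe sets of a gene were averaged. Without mouse 2 it was -0.066, which follows from the 4-mouse values by arithmetic.

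Of the regulators, 2 of 9 were above the background range. Eif4ebp2, whose product holds the cap-binding protein away from its scaffold until mTOR phosphorylates it, had 9.10, 9.29, 9.03 and 9.08 in mice 1 to 4 and, in its other bright probe set, 8.17, 8.43, 8.08 and 8.26. In both, mouse 2 stood highest and mouse 3 lowest. The remaining probe set of Eif4ebp2, under the limit in every mouse, had 5.30, 5.13, 5.46 and 5.29, with mouse 2 lowest and mouse 3 highest. The paralogue Eif4ebp1 had 6.00, 5.77, 5.95 and 5.77, under the limit in every mouse.

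The 4 kinases of eIF2 alpha answer different stresses, and 1 was above the range. This was Eif2ak1, the heme-regulated kinase, with 6.73, 6.78, 6.69 and 6.56. The double-stranded RNA kinase gene Eif2ak2 had 3.948, 3.820, 3.787 and 3.999, the endoplasmic reticulum kinase gene Eif2ak3 had 4.05, 4.02, 4.16 and 4.18, and Eif2ak4, which senses uncharged tRNA, had 3.22, 2.96, 3.21 and 2.90. None of the last 3 exceeded the limit in any mouse. Eef2k, the inhibitory kinase of eEF2, had 5.83 ± 0.07, the methyltransferase gene Eef1akmt1 4.09 ± 0.12 and the eIF4E transporter gene Eif4enif1 3.35 ± 0.05, also not above the range.

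Cytosolic synthetases were above the range in 14 of 17 cases, and their median SD was 0.094 over 20 probe sets against 0.11 over the 10833 probe sets that read a single gene. The symbols covered every amino acid but aspartate and phenylalanine, glutamate and proline by the joint enzyme gene Eprs. Wars, for tryptophan, had 9.15, 9.29, 9.22 and 9.30 in mice 1 to 4, and its 3 probe sets were all above the range. Qars, for glutamine, had 8.39, 8.53, 8.10 and 8.31. Sars, for serine, had 7.38, 7.86, 7.43 and 7.55, highest in mouse 2. Nars, for asparagine, had 7.25, 7.09, 7.16 and 6.72, the largest SD of the synthetases above the range at 0.23, with mouse 4 lowest.

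The 5 synthetase genes with a C/EBP-ATF element in their window did not share a highest mouse. Gars had 7.206, 6.840, 6.997 and 6.903, highest in mouse 1. Aars had 7.08, 6.90, 6.88 and 7.16, highest in mouse 4. Iars had 7.35, 7.34, 7.28 and 7.19.
Tars had 6.53, 6.45, 6.60 and 6.50, and Yars 6.73, 6.56, 6.64 and 6.66, the smallest SDs of the synthetases above the range by their brightest probe set, at 0.06 and 0.07. The highest mouse was mouse 1 for Gars, Iars and Yars, mouse 3 for Tars and mouse 4 for Aars.

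Of the rest, Cars, for cysteine, had 7.13, 6.77, 7.05 and 6.90. Vars (valine) had 7.45 ± 0.08, Lars (leucine) 7.19 ± 0.10, Mars1 (methionine) 6.97 ± 0.10 and Rars (arginine) 6.88 ± 0.09. Kars (5.88 ± 0.11), Hars (5.47 ± 0.05) and Eprs (4.68 ± 0.24) were not above the range. Eprs, Iars, Kars, Lars, Mars1, Qars and Rars sit in the multi-synthetase complex, and 5 of these 7 were above it, as were 9 of the 10 synthetases outside the complex.

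The cytosolic synthetases did not share the order of the initiation genes. Of the 14 over the mean limit 7 (50%) were highest in mouse 1, where 23.1% of all genes over it were, and 8 (57.1%) were lowest in mouse 2, where 30.3% of all genes were. Mars1, Gars, Vars, Yars, Cars, Iars and Nars were the 7, and Sars and Qars were the 2 highest in mouse 2. The mean deviations were 0.063, -0.019, -0.0039 and -0.040 in mice 1 to 4, against -0.077, 0.13, -0.020 and -0.032 for initiation. The 34 ribosomal protein genes measured, 21 of them over the limit, had -0.0047, 0.059, -0.043 and -0.011, with 10 (47.6%) highest in mouse 2. The value of the synthetases in mouse 1 became 0.031 with dim genes kept. In mouse 2 it was -0.072 as a median over the genes and 0.0018 with arrays shifted to the same median, so it had no settled sign. Without mouse 1 it was 0.0016, which follows from the 4-mouse values by arithmetic. The difference between the 2 roles was not tested.

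**Figure D4:**
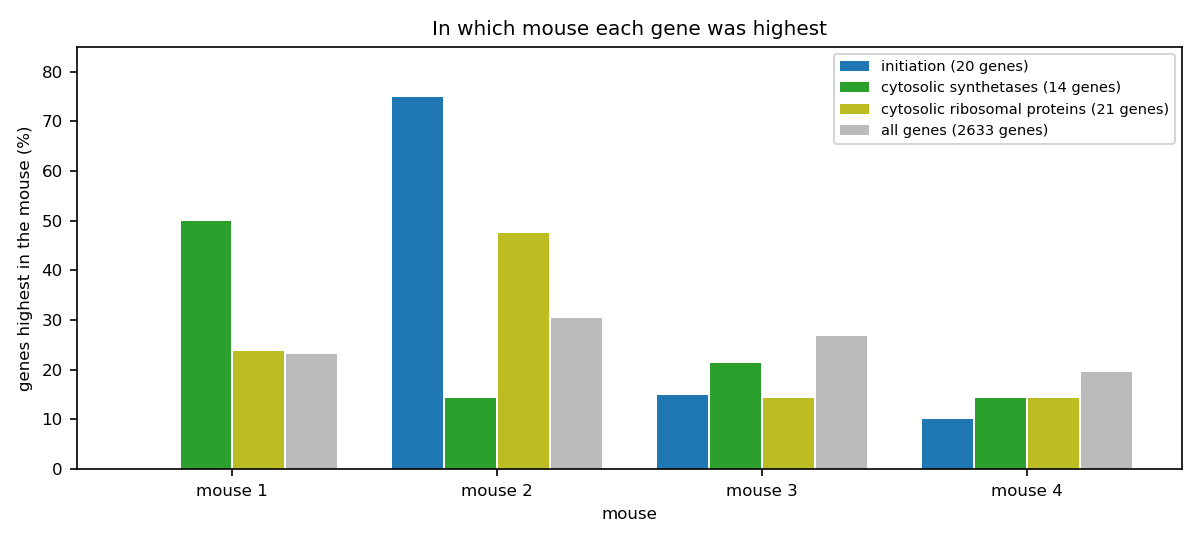
Share of genes (y axis, percent of the group's genes whose mean exceeded the mean background limit) that were highest in each mouse (x axis), for initiation genes, cytosolic synthetases, ribosomal proteins and all genes (bars, numbers of genes in the legend). Of 20 initiation genes 75% were highest in mouse 2 and 0 in mouse 1, and of 14 cytosolic synthetases 50% were highest in mouse 1.

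Of the synthetase genes counted as mitochondrial, those with a symbol ending in ars2, none of 5 was above the background range. Iars2 had 6.01 ± 0.06 and passed the limit in mouse 2 alone. Sars2 had 6.12, 5.78, 5.81 and 6.17, Fars2 5.54, 5.64, 5.98 and 5.51, Rars2 5.02, 5.56, 5.38 and 5.23, and Tars2 4.68, 4.78, 4.77 and 4.87. Among the factors that work beside these enzymes in mitochondria 1 of 5 was above the range, the elongation factor gene Tufm, at 6.70, 6.44, 6.63 and 6.64.

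Different probe sets of a gene often disagreed in level, and 9 of the 19 members with several probe sets had some above the range and some not. Beside Eef1b2, Eif4b, Eif4e2, Eif4ebp2, Etf1, Pabpc4 and Yars, these were Eif3b, with 8.45 ± 0.12 and 5.08 ± 0.15, and Eif3l, with 8.09 ± 0.09 and 2.52 ± 0.08. Eif4b had 7.97 ± 0.20 in 1 probe set and 5.02 ± 0.24, 3.41 ± 0.10 and 3.16 ± 0.06 in the others. A dim probe set therefore does not bound the level of its gene. By Dixon's criterion a mouse stood far from the others in 1 of the 104 member probe sets, a dim one of Eif4b, where 5.09% of all probe sets had such a mouse.

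The spread between mice was then set against that of all probe sets. By limma's variance model, which compares each probe set's variance over the 4 mice with the variance fitted for its signal, 0 of 104 member probe sets had an adjusted p under 0.05, where 0.282% of all 12422 did. At an unadjusted p under 0.05 stood 5 of 104 (4.81%), where 5.44% of all probe sets did. The 5 read Eif4g3, Eif2s2, Eif2b1, Pabpc4 and Eif1a. Eif4g3 had the smallest p, with an SD of 0.36, a 1.73-fold difference between mice 2 and 4, and an adjusted p of 0.494 (limma). A range over 0.5 log2 units was seen in 16 of 104 probe sets (15.4%), where 8.54% of all had one, among them 5 of 11 of the termination and poly(A)-binding role and 0 of 13 for eIF3. In simulated data an SD raised 3-fold was called in 1.5% of probe sets and one raised 6-fold in 66.5%, so the absence of a call leaves room for differences between mice.

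**Figure D5:**
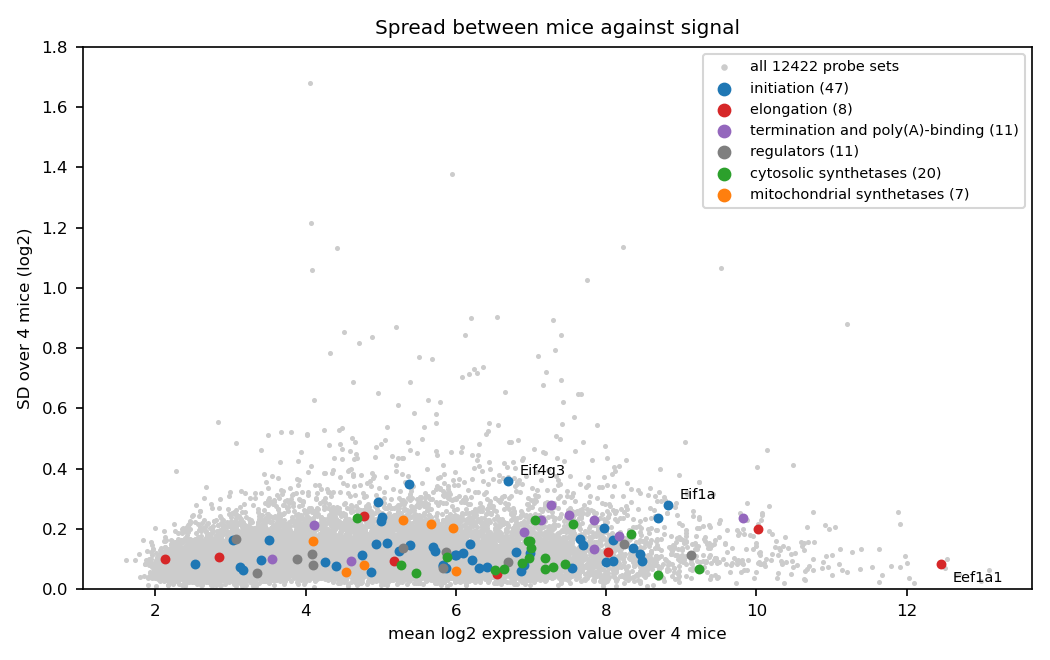
SD over 4 mice (y axis, log2 units) against mean log2 expression value (x axis) for all 12422 probe sets (grey) and for the 104 member probe sets, coloured by role. The members lie within the main cloud, with Eif4g3 highest among them at an SD of 0.36.

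Other genes of the pathway, from lists of upstream signals and partners, gave 0 called genes. In the list of the eIF2 alpha stress response, 12 of 19 genes on the array passed the limit in every mouse, with mean deviations of -0.036, -0.040, 0.11 and -0.034 over 12 genes. The value in mouse 3 rested mainly on Ddit4 and was 0.035 over the other 11 genes, and of the 12 genes 6 were highest and 4 lowest in mouse 3. Ddit4, a stress-induced inhibitor of mTOR, had 7.33, 7.09, 8.56 and 7.51 in mice 1 to 4 and an adjusted p of 0.0589 (limma), with mouse 3 above the others. Xbp1, a transcription factor of the unfolded protein response, had 7.88, 8.49, 8.08 and 8.06, and Slc3a2, an amino acid transporter subunit, 9.50, 9.05, 9.44 and 9.20. Atf4 itself, named after its values were seen, had 8.44, 8.78, 8.89 and 8.60. Without adjustment 2 of 21 probe sets of this list (9.52%) had a p under 0.05 (limma), where 5.44% of all probe sets did. In the other lists these were 1 of 25 for mTOR and MNK signalling and 1 of 6 for mitochondrial translation factors. For other translation factors and synthetase partners it was 1 of 15.

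Among mTOR and MNK signalling genes 13 of 18 were above the range. Pdcd4, an inhibitor of the eIF4A helicase, had 6.74, 7.40, 6.38 and 6.99 (SD 0.43, adjusted p = 0.300, limma), highest in mouse 2 like Eif4a2 and Eif4g3 and lowest in mouse 3. Akt1 was lowest in mouse 4 at 6.59 and at 6.81 or more in the others, and Mtor had 6.66, 6.63, 6.90 and 6.70. Of the remaining translation factors and synthetase partners 7 of 14 were above the range. The scaffold genes of the multi-synthetase complex, Aimp1 and Aimp2, had 7.17, 7.54, 7.26 and 6.96, and 6.810, 6.545, 7.004 and 6.880, so that mouse 2 was highest for Aimp1 and lowest for Aimp2. Abce1, which recycles ribosomes, had 6.51, 6.25, 6.54 and 6.45.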

How the data were processed

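The table the authors deposited holds 1 log2 value for each probe set and array, and the submitters' processing notes name RMA. The log2 scale was read from the values. The version of RMA, and the arrays that entered it, were not given in the sources used here. RMA brings arrays to a common distribution, which hides a shift shared by most genes, and it shrinks differences of dim probe sets. No value was transformed further.

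The 66 control probe sets were left out of tests. Genes came from the platform annotation; 10833 probe sets had 1 gene, 396 several and 1193 none. All 104 member probe sets matched a RefSeq gene (GRCm38.p6) by gene ID with the same symbol. Where a gene had several probe sets, that with the highest mean stood for it. Mice were numbered 1 to 4 in series order, which only names them. Whether litter or hybridisation batch was shared is not given, and p-values measure the spread between these samples.

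Spread was tested by comparing each variance over the mice (3 degrees of freedom) with the variance that limma fitted for probe sets of that signal (fitFDistRobustly with a trend, 8.06 prior degrees of freedom), in an upper-tail F test with Benjamini-Hochberg adjustment over 12422 probe sets at 0.05. The test was checked on simulated data. Levels and deviations have no test, and 4 arrays limit their precision. The members, lists and alternatives were chosen with earlier results of these data known. Members named with a value in every mouse were those of largest and smallest SD per role above the range, those with disagreeing probe sets or an outlying mouse, and paralogue pairs; other values are given beside them. Tools were R 4.3.3, limma 3.58.1, Python 3.11.15 and matplotlib 3.10.9.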

Additional observations from a re-analysis of the deposited data

Results flagged for a closer look

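Of the 104 member probe sets, 1 had a mouse far from the others by Dixon's criterion for 4 samples, where 5.09% of all 12422 probe sets had one and chance alone flags about 1 in 20. It is a dim probe set of Eif4b, with 4.87, 5.38, 4.93 and 4.91 in mice 1 to 4, in which the gap of mouse 2 to the nearest other mouse made up 0.895 of the range. The gene's brightest probe set, with 7.87, 8.27, 7.82 and 7.92, was also highest in mouse 2. The probe set was under the background range in every mouse and was not called (SD 0.24, adjusted p = 0.957, limma).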

How the results depend on the processing

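The count of 0 called member probe sets held in all 11 alternatives (other scalings, prior fits and filters, the mean of a gene's probe sets, and leaving out each mouse), with the lowest adjusted p of a member between 0.325 and 0.848 (limma). The count of members above the background range ran from 36 to 61 with other limits and was 43 without any one mouse. Without mouse 1, 3 or 4 the mean deviation of initiation genes in mouse 2 ran from 0.099 to 0.12. Leaving out a mouse recentres the deviations of the others. Such values therefore follow from the 4-mouse values, save for genes that cross the limit, and are no separate check of any role. Alternatives chosen after the data were seen gave 12 to 22 initiation genes highest in mouse 2, of 16 to 33 genes. Across the other settings 158 deviations of roles moved by less than the spread between mice and 2 by more, namely elongation in mouse 4, at 0.0015 with dim genes kept against -0.094, and cytosolic synthetases in mouse 2, at -0.072 as a median against -0.019. Leaving out Ddit4, chosen after the data were seen, took the stress response list in mouse 3 to 0.035 against 0.11. Under the median of each array as limit 55.4% of all genes passed. The low signal of mitochondrial synthetases and of most regulators limits what their values can show. No paired analysis was possible because the labels give 1 group.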
